A study of Rattus norvegicus with 3 samples.

Results

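The collagen chain genes were read on the arrays of tendon stem/progenitor cells (TSPCs), the clone-forming cells that grow out of tendon tissue. They were found by gene symbol: every probe set, a group of short probes against a transcript, whose single symbol in the platform's table was Col, a number, a and a number. The rule gave 58 probe sets for 41 genes, out of 20826 probe sets for 14217 genes with a single name and 31042 probe sets in all. The cells were cultured from the Achilles tendons of Sprague-Dawley rats aged 1 day (TSPCs-1d), 7 days (TSPCs-7d) or 56 days (TSPCs-56d), without treatment. All cultures were expanded in low glucose DMEM with fetal bovine serum and were used at passage 2. Each culture pooled the tendons of at least 2 rats, was polyclonal, and was read on 1 Affymetrix Rat Genome 230 2.0 array. With 1 array per age, a difference has no replicate check, no error can be given for any value, and no test was made. In such bulk RNA, fewer cells of a type and less RNA per cell cannot be told apart.

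Collagens are secreted proteins of 3 chains wound into a triple helix. Fibrillar collagens form the load-bearing fibres of tendon, in which type I predominates. FACIT collagens sit on the surface of these fibrils. Network collagens form sheets such as the basement membrane, and beaded filaments of type VI link cells to the surrounding matrix. Transmembrane collagens stay in the cell membrane, and multiplexins lie at basement membranes.

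The signals of the chains of the main tendon fibres differed little between ages, at the top of the scale where all probe sets differed little. *Col14a1*, a chain of fibril surfaces, and *Col15a1*, a multiplexin, differed several-fold. In TSPCs-7d, the *Col14a1* signal was 4.84 times that of TSPCs-1d and 7.09 times that of TSPCs-56d. *Col15a1* was higher at each step of age, 5.64-fold from TSPCs-1d to TSPCs-56d. *Col6a3* of TSPCs-7d was 2.56-fold above TSPCs-1d, and 1.43-fold in its other, faint probe set. By contrast, the 3 signals of *Col1a1*, *Col1a2*, *Col3a1*, *Col5a1* and *Col27a1* each lay within 1.1-fold of each other, and whether the probes of the brightest were near saturation was not tested.

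A gene was read from its probe set of highest mean signal, with its other probe sets given beside it, and a ratio of signals over 2 or under 0.5 counted as higher or lower, the cutoff of the study. In TSPCs-7d vs. TSPCs-1d, 3 of the 41 genes were higher (7.32%, against 1.87% of all genes) and 1 was lower (2.44% against 1.08%). Against TSPCs-56d, TSPCs-7d had 3 that were higher (7.32% against 2.10%) and 1 was lower (2.44% against 1.72%). In TSPCs-56d vs. TSPCs-1d, 2 were higher (4.88% against 2.00%) and 3 were lower (7.32% against 1.77%). With arrays divided by their medians this last split was 1 higher and 3 lower, and that of all genes 233 and 303 in place of 284 and 251. These comparisons share arrays in pairs, and counts this small differ from the shares of all genes by only a few genes. In total, 8 genes passed the cutoff in at least 1 comparison (19.5%, against 6.49% of all genes). The median log2 ratio of the 41 genes was 0.02, -0.05 and 0.10 in the comparisons in this order, and that of all 14217 genes 0.01, -0.05 and 0.06.

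A signal under 48.9 (the 25th percentile over all arrays) counts as dim here, and a fold against such a signal is counted from that percentile ("at least"). This floor was chosen and is not a detection limit, so such a bound depends on it. Of the 41 genes, 7 were dim on all 3 arrays, 5 on some and 29 on none. The signal exceeded the median of all signals, 110, on at least 1 array for 23 genes. The other 18 had signals from 15.6 to 109.9. The same number, 23, had a mean signal over the median. Of these, 6 (26.1%) had a highest signal more than 2-fold over the lowest, against 6.86% of the 9405 genes of all kinds chosen by that mean. At the other end, 5 (21.7%) had all signals within 1.1-fold, against 16.3%.

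**Figure D1:**
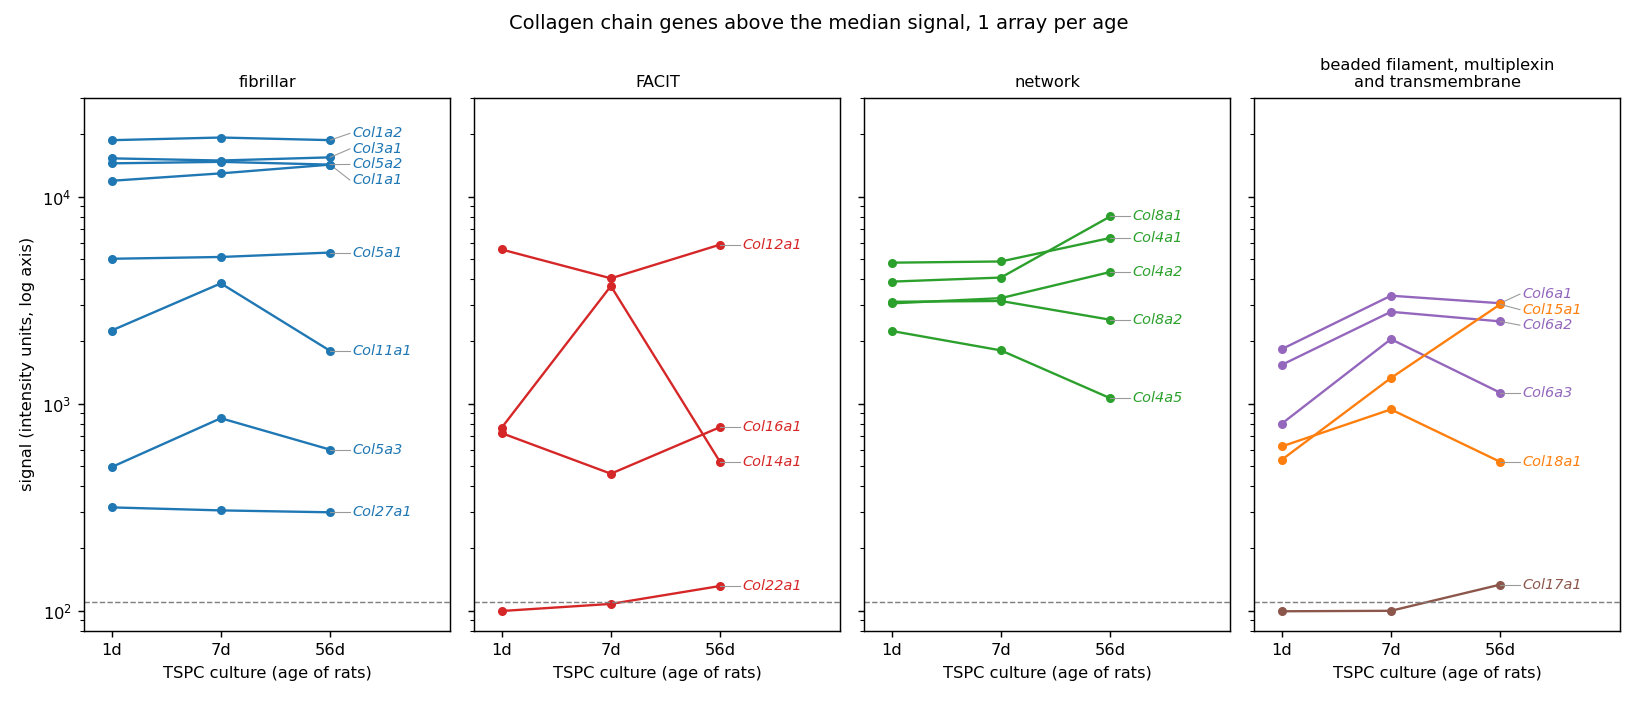
Signal (intensity units, log axis) of the 23 collagen chain genes above the median of all signals on at least 1 array, for each culture, by class, 1 line per gene (probe set of highest mean signal) and 1 point per array, with the median of all signals (110) dashed. The lines of *Col1a1*, *Col1a2* and *Col3a1* are flat, *Col14a1* peaks in TSPCs-7d (3702) and *Col15a1* climbs to 3020.3 in TSPCs-56d.

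Fibrillar collagens. *Col1a1* and *Col1a2* encode the chains of type I collagen. In the order TSPCs-1d, TSPCs-7d, TSPCs-56d, which holds for all signals given as 3 values, *Col1a1* read 14491, 14736 and 14286, and 14437, 14249.8 and 13637 in its other probe set. *Col1a2* had 18751, 19315 and 18760.3, and 15616, 15432 and 15171 in its other probe set. No ratio between ages exceeded 1.06 in any of these 4 probe sets. *Col3a1*, the chain of type III collagen of young and repairing tendon, was as flat, with 15320.1, 14955 and 15491. These signals lie at the upper end of the scale, where the *Col1a2* probe set was the brightest of all 31042 on every array. The 89 probe sets over 10000 on all arrays differed between ages by a median log2 ratio of 0.05, 0.06 and 0.04 in size, less than the 0.14, 0.16 and 0.16 of 3011 probe sets with a mean between 1000 and 10000.

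Type V collagen is built into type I fibrils and limits their width. *Col5a1* had signals of 5014, 5115 and 5373, and *Col5a2* of 11936, 12963 and 14289. Both were lowest in TSPCs-1d and highest in TSPCs-56d, by 1.07-fold and 1.20-fold. The second probe set of *Col5a2*, away from the top of the scale, gave 6714, 8115 and 9459, a 1.41-fold difference. *Col5a3*, the third chain, followed another order, with 494, 851 and 599.9, with TSPCs-7d 1.72-fold above TSPCs-1d.

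*Col11a1* encodes a chain of type XI collagen, which nucleates fibrils in cartilage and in developing tendon. It read 2256.5, 3814 and 1799.7, and TSPCs-7d was 1.69-fold and 2.12-fold higher. Its other probe sets had 740.0, 1328 and 651, and 149.6, 314 and 122. All 3 probe sets were highest in TSPCs-7d and lowest in TSPCs-56d, and all passed 2-fold against TSPCs-56d. Against TSPCs-1d, only the dimmest did (2.10-fold). The partner chain *Col11a2* stayed under the median, with 71.1, 82.3 and 81.5. *Col2a1*, the main chain of cartilage fibrils, had signals from 37.9 to 72.4 in its 3 probe sets, which did not order the ages alike. *Col27a1* had 316, 305 and 299, and *Col24a1* 69.9, 39.3 and 50.1. Over the 11 fibrillar genes, the median log2 ratio was 0.03, 0.01 and 0.02 in the 3 comparisons.

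Some cartilage markers were, like *Col11a1*, lower in TSPCs-56d. *Acan*, the aggrecan gene, had signals of 8588, 8224 and 2874, and the link protein gene *Hapln1* 399.8, 428 and 119.8. Of 7 cartilage markers measured, 2 were more than 2-fold lower in TSPCs-56d than in TSPCs-7d and 0 were higher (2.10% and 1.72% of all genes). A further 3 (*Cnmd*, *Chad* and *Ucma*) were at or under the median on all arrays. The other 2, *Matn1* (118, 114 and 124) and *Snorc* (174, 178 and 208), were highest in TSPCs-56d. The summed signal of the 7, most of it from *Acan*, was 9439, 9095 and 3461. Between TSPCs-7d and TSPCs-1d, where *Col11a1* differed 1.69-fold, *Acan* differed 1.04-fold. The part of cartilage-type cells in the *Col11a1* values was not tested.

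FACIT collagens. *Col14a1* encodes type XIV collagen, which coats fibrils and is rich in young tendon. It read 765, 3702 and 522, and 162, 654 and 134 in its other probe set. Both probe sets were high in TSPCs-7d alone, with ratios of 4.84 and 4.03 over TSPCs-1d and of 7.09 and 4.87 over TSPCs-56d. Between TSPCs-1d and TSPCs-56d, the signal of TSPCs-1d was the higher by 1.46-fold and 1.21-fold, short of the cutoff. The gene is thus the collagen that set TSPCs-7d apart by the widest margin among the 41 on the probe sets of highest mean signal.

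Type XII and type XVI collagens had the opposite order. *Col12a1*, a fibril-coating relative of type XIV, had signals of 5559.9, 4034 and 5871 and was lowest in TSPCs-7d, 1.38-fold below TSPCs-1d and 1.46-fold below TSPCs-56d. Its other probe sets had 222, 132 and 194, and 186, 119.8 and 155. All 3 probe sets were lowest in TSPCs-7d, and none of their ratios reached 2. *Col16a1*, a minor fibril-associated chain, had 721, 459 and 771, so that TSPCs-7d was 1.57-fold and 1.68-fold lower. Within the class, TSPCs-7d was thus the highest culture for *Col14a1* and the lowest for *Col12a1* and *Col16a1*.

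*Col19a1*, known from embryonic muscle and basement membrane zones, was faint. It read 109.9, 33.6 and 19.5, so that TSPCs-1d was at least 2.25-fold above both older cultures. It did not exceed the median on any array, and it has 1 probe set. *Col22a1*, a collagen of the junction between muscle and tendon, had 99.7, 108 and 132. The type IX chains of cartilage fibrils were faint or dim, with 75.6 to 103 for *Col9a2*, 38.6 to 47.5 for *Col9a3* and 25.9 to 28.2 for *Col9a1*, as was *Col20a1* with 29.6 to 34.9. The 9 FACIT genes had median log2 ratios of -0.12, -0.10 and 0.08.

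**Figure D2:**
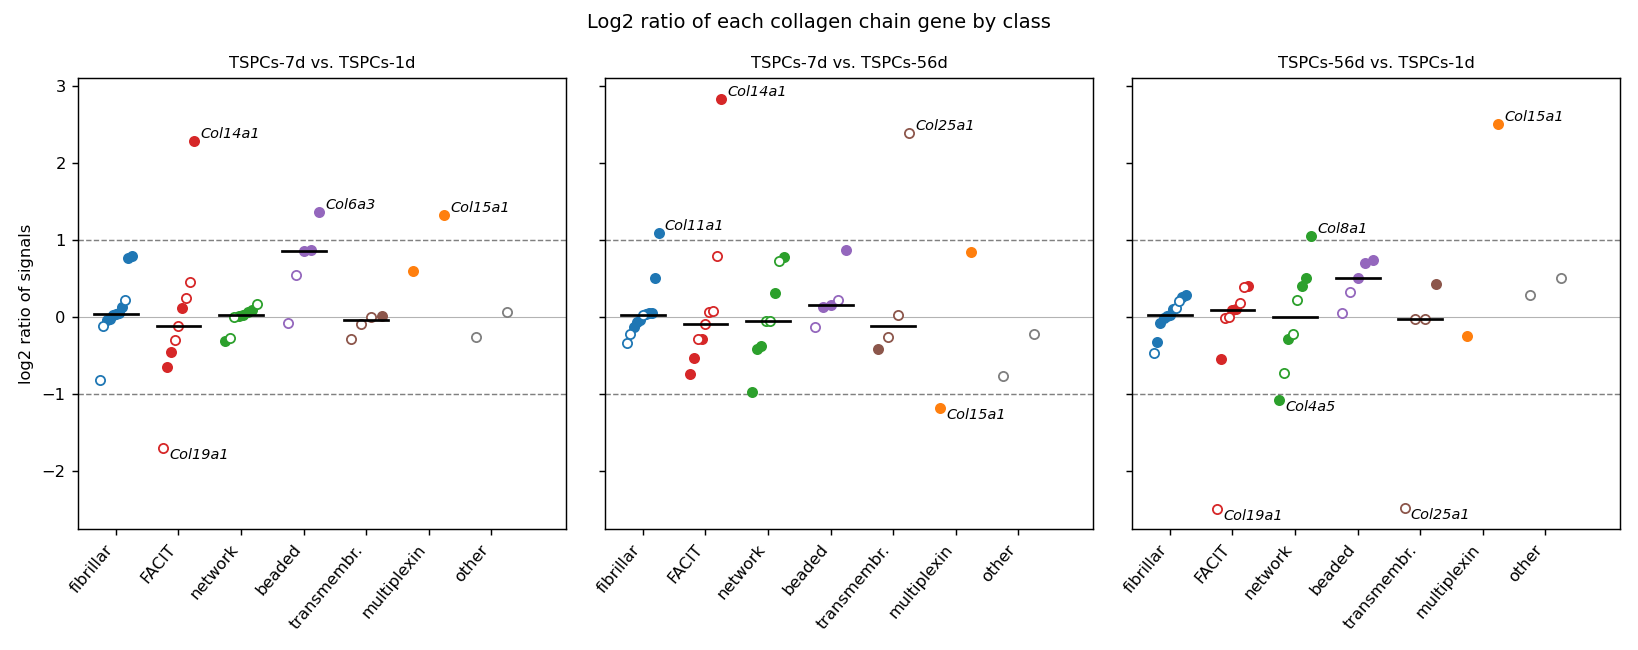
Log2 ratio of signals of each of the 41 collagen chain genes (1 point per gene, probe set of highest mean signal) by class in the 3 comparisons of arrays, filled where the gene exceeded the median of all signals on at least 1 array and open otherwise. Black bars are medians of the classes with more than 2 genes, and dashed lines mark 2-fold. The fibrillar median lies near 0 in each comparison, while the beaded filament median is 0.85 in TSPCs-7d vs. TSPCs-1d.

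Network collagens. *Col4a1* and *Col4a2* encode the chains of the type IV collagen found in nearly all basement membranes. *Col4a1* had signals of 4801, 4866 and 6320.0, and 3337, 3317 and 4528 in its other probe set. *Col4a2* had 3052, 3236 and 4327. In both genes the cultures of young rats differed little, and TSPCs-56d was 1.32-fold and 1.42-fold above TSPCs-1d. *Col4a5*, an alternative type IV chain, went the other way, with 2246, 1809.7 and 1063, 2.11-fold lower in TSPCs-56d than in TSPCs-1d. Its partner *Col4a6* was near the dim level in both of its probe sets (43.7 to 50.9), and *Col4a4* was dim on all arrays.

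Type VIII collagen forms hexagonal sheets around vessels and under epithelia of the eye. *Col8a1* had signals of 3888, 4068 and 8027, so that TSPCs-56d was 2.06-fold above TSPCs-1d and 1.97-fold above TSPCs-7d. The first of these ratios was 1.93 with the arrays scaled to equal medians, so its place beyond the cutoff is marginal. *Col8a2* had 3108, 3135 and 2545, lowest in TSPCs-56d, where *Col8a1* was highest. *Col10a1*, the collagen of hypertrophic cartilage, was dim on all arrays (36.5 to 44.5). The 8 network genes had median log2 ratios of 0.02, -0.06 and -0.01.

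Beaded filament collagens. Type VI collagen forms the pericellular matrix of tendon cells. *Col6a1* read 1834, 3325 and 3058, and *Col6a2* of 1539.8, 2780.0 and 2499. In both, TSPCs-7d was 1.81-fold above TSPCs-1d, and TSPCs-56d was 1.67-fold and 1.62-fold above it. The other probe set of *Col6a2* had 191, 277 and 298. *Col6a3*, the third and largest chain, had 799.9, 2051 and 1130.3. It was lowest in TSPCs-1d like its partners, but TSPCs-7d was 2.56-fold higher and also 1.81-fold above TSPCs-56d. Its other probe set is faint and gave 51.7, 73.7 and 65.6, the same order in which TSPCs-7d was 1.43-fold above TSPCs-1d. With the geometric mean over both probe sets, the ratio was 1.91. *Col6a5* (60.9 to 66.8) and *Col6a6* (dim, 29.9 to 43.2) were under the median. Over the 5 genes, the median log2 ratio was 0.85, 0.15 and 0.50. Both *Col6a1* and *Col6a2*, not past the cutoff, are part of this median.

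Multiplexins and transmembrane collagens. *Col15a1* encodes type XV collagen, which bridges basement membranes to fibrils. It read 535, 1331 and 3020.3, and 574, 1395 and 2778 in its other probe set. Both probe sets had the same order of ages, with ratios of 2.49 and 2.43 for TSPCs-7d over TSPCs-1d and of 5.64 and 4.84 for TSPCs-56d over TSPCs-1d. TSPCs-7d was 2.27-fold lower than TSPCs-56d, and 1.99-fold in the other probe set. *Col18a1*, the source of endostatin, was instead highest in TSPCs-7d, with 621, 939 and 524, and 419, 594 and 329. It was 1.51-fold and 1.79-fold above TSPCs-1d and TSPCs-56d, without passing the cutoff.

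Of the transmembrane collagens, *Col17a1*, a chain of hemidesmosomes, had signals of 99.4, 99.9 and 134. *Col23a1* had 66.2 to 67.5 and *Col13a1* was dim (20.3 to 24.8). *Col25a1*, known from neurons and developing muscle, had 87.5, 81.9 and 15.6. TSPCs-56d was at least 1.79-fold below TSPCs-1d and 1.68-fold below TSPCs-7d, so its ratios of 5.60 and 5.24 rest on a dim signal in 1 probe set. The anchoring fibril gene *Col7a1* had 63.7, 66.4 and 77.5, and *Col26a1* 44.4, 36.9 and 63.0. No probe set had *Col4a3*, *Col6a4*, *Col21a1* or *Col28a1* as its single symbol, so these genes were not read.

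**Figure D3:**
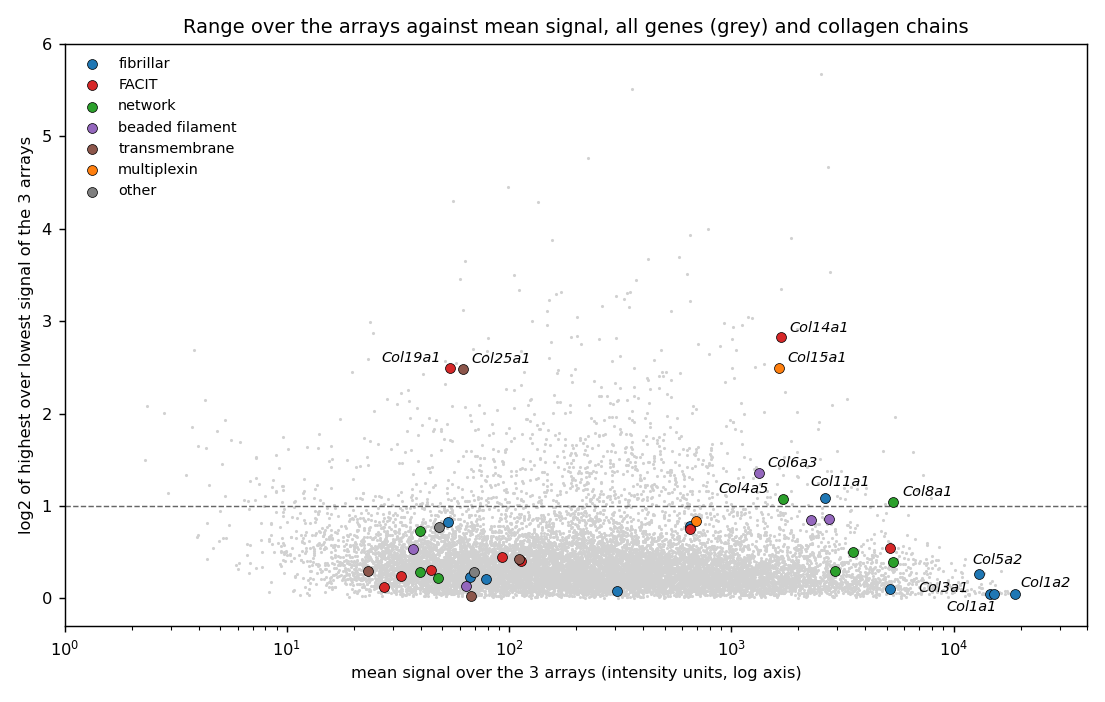
Log2 of the highest over the lowest signal of the 3 arrays against the mean signal (intensity units, log axis) for 14217 genes (grey) and the 41 collagen chain genes (coloured by class, with the anchoring fibril gene under other), with 2-fold dashed. *Col1a1*, *Col1a2* and *Col3a1* lie at the upper end of the signal, where all genes vary little, and *Col14a1* and *Col15a1* lie high in the middle range.

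How far probe sets of a gene differ on the same arrays was read from genes with more than 1. Such gaps do not cover differences between cultures, pools of rats or hybridizations, which 1 array per age cannot show. For 1714 genes of all kinds that have a pair of probe sets brighter than the median, the log2 ratios of both differed by more than 0.39, 0.44 and 0.53 in 10% of pairs in the 3 comparisons. Among the collagens, 14 genes have more than 1 probe set and 27 have 1. Their 17 further probe sets differed from the brightest one by a median of 0.09, 0.17 and 0.15 on the log2 scale. The widest gap was 0.85, for the faint probe set of *Col6a3*. The ratios of *Col14a1* for TSPCs-7d against both other cultures and those of *Col15a1* in all 3 comparisons were larger than that gap. In *Col11a1*, the ratio of TSPCs-7d over TSPCs-56d was 1.08 on the log2 scale, and that over TSPCs-1d was 0.76, smaller than it. For *Col8a1*, *Col4a5*, *Col16a1* and *Col5a3*, with 1 probe set each, not even this comparison of probe sets exists.

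**Figure D4:**
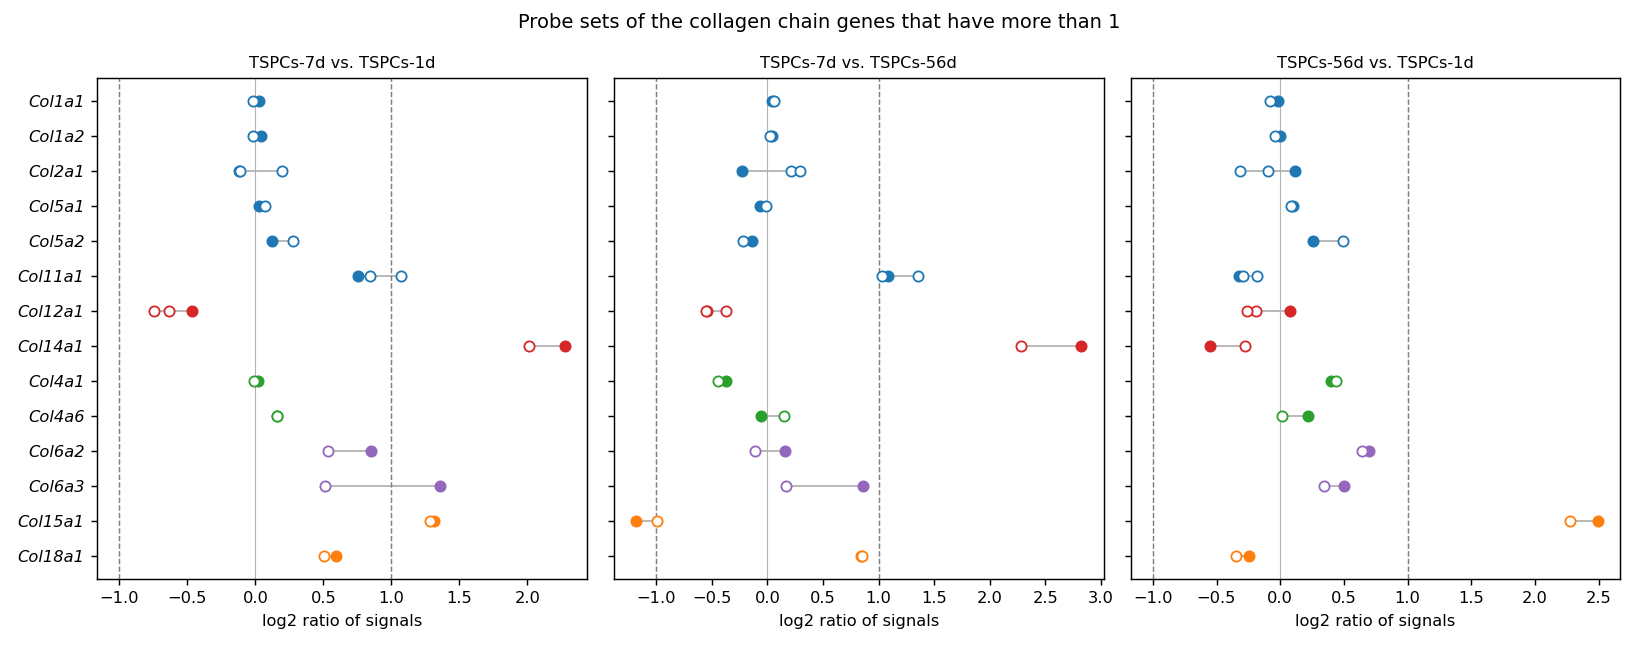
Log2 ratio of signals of every probe set (points) of the 14 collagen chain genes with more than 1, in the 3 comparisons of arrays, filled for the probe set of highest mean signal and open for the others, with 2-fold dashed. Both probe sets of *Col14a1* exceed 2-fold in TSPCs-7d, and those of *Col6a3* lie 0.85 apart in TSPCs-7d vs. TSPCs-1d.

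Chains of the same collagen type could be set beside each other as differences of log2 ratios. *Col1a1* and *Col1a2* differed by -0.02, 0.00 and -0.02 in the 3 comparisons, *Col6a1* and *Col6a2* by 0.01, -0.03 and 0.04, and *Col4a1* and *Col4a2* by -0.07, 0.04 and -0.11. These gaps are smaller than those exceeded by 10% of pairs of probe sets of the same gene. *Col6a1* was apart from *Col6a3* by -0.50, -0.74 and 0.24, of which the first 2 exceed that guide. The probe sets of *Col6a3* themselves differed by 0.85 and 0.69 in those comparisons, and with the fainter one *Col6a3* had a log2 ratio of 0.51 in the first, below the 0.86 of *Col6a1*. *Col8a1* and *Col8a2* were apart by 0.05, -1.28 and 1.33. Within type IV, *Col4a1* and the alternative chain *Col4a5* were apart by 0.33, -1.14 and 1.48. *Col4a5* and its partner *Col4a6*, which was near the dim level, were apart by -0.47, 0.82 and -1.30. In the RefSeq annotation of rat assembly GRCr8, *Col4a1* and *Col4a2* are neighbours, as are *Col6a1* and *Col6a2*, and *Col3a1* and *Col5a2*. The first 2 of these pairs had nearly equal ratios, and the third had log2 ratios of 0.02 and 0.26 in TSPCs-56d vs. TSPCs-1d. *Col9a1* and *Col19a1* are also neighbours and had unlike ones, -0.12 and -1.71 in TSPCs-7d vs. TSPCs-1d, though both were dim in TSPCs-7d. The neighbours *Col6a5* and *Col6a6*, both under the median on all arrays, had -0.09 and 0.53 in TSPCs-7d vs. TSPCs-1d.

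The promoter windows of RefSeq (GRCr8, 250 bases before to 50 after the start) are shown for the 6 genes past the cutoff that had one, and for the type IV pair, whose ratios were nearly equal. Of the 41 genes, 32 had a window, and among those without one were *Col14a1* and *Col25a1*, the other genes past the cutoff. Printed 5′ to 3′, capitals mark matches on either strand to the GC box GGGCGG, the CCAAT box CCAAT, the E-box CANNTG and the SMAD box CAGAC. The windows are chr2:204508886-204509185 (+ strand) for *Col11a1*, chr9:98886909-98887208 (minus strand) for *Col6a3*, chr5:66297296-66297595 (+ strand) for *Col15a1*. Those of the others are chr11:56246532-56246831 (+ strand) for *Col8a1*, chrX:109907109-109907408 (+ strand) for *Col4a5* and chr9:34518208-34518507 (minus strand) for *Col19a1*.
Col11a1: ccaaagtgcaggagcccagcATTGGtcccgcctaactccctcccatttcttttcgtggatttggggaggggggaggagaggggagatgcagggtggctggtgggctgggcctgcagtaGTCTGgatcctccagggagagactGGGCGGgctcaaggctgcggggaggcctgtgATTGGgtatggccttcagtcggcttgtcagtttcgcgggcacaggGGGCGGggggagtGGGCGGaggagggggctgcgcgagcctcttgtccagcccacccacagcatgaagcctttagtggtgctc
Col6a3: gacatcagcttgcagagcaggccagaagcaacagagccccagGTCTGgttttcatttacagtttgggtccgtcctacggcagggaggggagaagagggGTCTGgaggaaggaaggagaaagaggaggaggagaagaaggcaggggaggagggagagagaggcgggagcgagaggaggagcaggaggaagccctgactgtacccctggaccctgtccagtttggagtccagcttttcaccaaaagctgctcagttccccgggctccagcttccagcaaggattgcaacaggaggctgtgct
Col15a1: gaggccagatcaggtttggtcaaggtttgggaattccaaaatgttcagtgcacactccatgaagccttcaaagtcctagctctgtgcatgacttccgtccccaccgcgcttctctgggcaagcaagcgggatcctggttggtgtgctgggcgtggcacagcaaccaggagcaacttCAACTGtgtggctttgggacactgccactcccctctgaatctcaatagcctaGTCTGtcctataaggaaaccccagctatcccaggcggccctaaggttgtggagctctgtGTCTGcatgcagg
Col8a1: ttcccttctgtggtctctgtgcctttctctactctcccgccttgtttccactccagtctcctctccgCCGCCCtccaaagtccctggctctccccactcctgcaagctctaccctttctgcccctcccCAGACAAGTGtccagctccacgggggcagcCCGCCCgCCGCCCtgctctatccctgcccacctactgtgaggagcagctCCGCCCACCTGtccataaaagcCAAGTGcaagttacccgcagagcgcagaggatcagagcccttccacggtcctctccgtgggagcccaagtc
Col4a5: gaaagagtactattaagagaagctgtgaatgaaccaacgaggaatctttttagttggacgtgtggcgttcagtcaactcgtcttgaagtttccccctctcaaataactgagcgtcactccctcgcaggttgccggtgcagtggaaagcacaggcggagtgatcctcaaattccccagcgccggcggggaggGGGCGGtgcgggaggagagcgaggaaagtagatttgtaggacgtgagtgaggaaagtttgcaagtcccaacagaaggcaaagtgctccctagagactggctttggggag
Col19a1: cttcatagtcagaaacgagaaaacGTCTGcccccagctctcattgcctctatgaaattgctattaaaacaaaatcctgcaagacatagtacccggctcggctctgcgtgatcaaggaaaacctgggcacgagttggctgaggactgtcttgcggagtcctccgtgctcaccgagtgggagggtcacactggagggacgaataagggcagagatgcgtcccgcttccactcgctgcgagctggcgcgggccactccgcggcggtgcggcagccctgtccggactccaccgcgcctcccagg

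The SMAD box stood in 5 of these 6 windows and not in that of *Col4a5*, with 2 matches each in *Col6a3* and *Col15a1* and 1 each in *Col11a1*, *Col8a1* and *Col19a1*. That letter string stands in 49.97% of all 27457 windows, and in 13 of the 32 of collagen genes (40.6%). A GC box stood in 3 of the 6, with 4 matches in *Col8a1*, 3 in *Col11a1* and 1 in *Col4a5*. *Col11a1* also held 2 CCAAT boxes, *Col8a1* 3 E-boxes and *Col15a1* 1. The pair of type IV genes start 77 bases apart on opposite strands, so that their windows, at chr16:84885347-84885646 (+ strand) for *Col4a1* and chr16:84885471-84885770 (minus strand) for *Col4a2*, share 176 bases.
Col4a1: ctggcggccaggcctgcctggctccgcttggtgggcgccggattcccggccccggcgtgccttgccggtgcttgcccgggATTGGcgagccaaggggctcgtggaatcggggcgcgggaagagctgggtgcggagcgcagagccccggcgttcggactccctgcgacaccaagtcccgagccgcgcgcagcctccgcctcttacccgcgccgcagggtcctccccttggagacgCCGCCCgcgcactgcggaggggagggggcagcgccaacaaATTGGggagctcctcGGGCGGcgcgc
Col4a2: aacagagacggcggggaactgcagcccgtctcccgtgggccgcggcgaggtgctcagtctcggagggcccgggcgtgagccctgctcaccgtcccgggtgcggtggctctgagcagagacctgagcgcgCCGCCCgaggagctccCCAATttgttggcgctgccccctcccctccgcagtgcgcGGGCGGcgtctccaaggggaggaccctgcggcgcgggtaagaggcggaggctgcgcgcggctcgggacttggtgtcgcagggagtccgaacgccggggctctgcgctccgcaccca

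Both type IV windows are GC-rich (75.0% and 73.7% G or C) and hold the same pair of GC boxes, read from either side. Over the 32 windows the median content of G and C was 59.7%, against 52.3% for all. A GC box was found in 18 (56.2%, against 34.9% of all windows), a CCAAT box in 9 (28.1% against 37.7%) and an E-box in 16 (50% against 71.6%). The TATA box TATAAA was found in 4 (12.5% against 14.3%), among them *Col1a2*, the SOX site ACAAAG in 4 (12.5% against 18.3%) and the AP-1 site TGANTCA in 1, *Col6a1* (3.12% against 7.33%). No motif contains another, though matches on a window may overlap in some bases. These matches describe the windows and were not tied to the signals.

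The genes that fold, process, bind, sense and degrade collagen were counted from lists chosen with earlier results of these data known. Beside these lists and the markers below, 1.87% of all genes were higher and 1.08% lower in TSPCs-7d vs. TSPCs-1d. Against TSPCs-56d these shares were 2.10% and 1.72%, and in TSPCs-56d vs. TSPCs-1d they were 2.00% and 1.77%. The median log2 ratios of all genes were 0.01, -0.05 and 0.06. Of 22 genes of procollagen folding and hydroxylation, 0 passed the cutoff in TSPCs-7d vs. TSPCs-1d (median log2 ratio 0.06). Against TSPCs-56d, 1 was lower in TSPCs-7d, the prolyl hydroxylase gene *P4ha2*, with signals of 1240.4, 996 and 2657, and the same gene was the 1 higher in TSPCs-56d vs. TSPCs-1d (2.14-fold). Of 11 genes of processing and crosslinking, 1 passed upward from TSPCs-1d to TSPCs-7d, *Pcolce2*, an enhancer of procollagen cleavage, with 51.0, 462 and 503. Its relative *Pcolce* had 6733, 6411 and 7261. The crosslinking enzyme gene *Tgm2* (131, 109.9 and 322) was 2.93-fold lower in TSPCs-7d than in TSPCs-56d and 2.46-fold lower in TSPCs-1d, so that 1 gene of the list was lower and 2 were higher in these comparisons.

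Of 16 fibril-binding genes, 3 were higher and 0 lower in TSPCs-7d vs. TSPCs-1d, with a median log2 ratio of 0.41. The third of these, *Dcn*, was dim in TSPCs-1d, with signals of 22.4, 49.4 and 607, and its bounded ratio was 1.01. The others were *Thbs4*, the thrombospondin of tendon and muscle (76.5, 339.6 and 348), and the fibromodulin gene *Fmod* (271, 774 and 408). Against TSPCs-56d, 0 were higher and 3 were lower in TSPCs-7d (median -0.10). In TSPCs-56d vs. TSPCs-1d, 6 were higher and 0 lower, against 2.00% and 1.77% of all genes (median 0.50, against 0.06). Of the 6 higher genes, *Matn2* rests on a dim signal (bounded ratio 1.08). They were led by *Lum* (at least 20.9-fold), *Dcn* (at least 12.4-fold) and *Prelp* (5.55-fold), proteoglycans that bind fibrils or basement membranes. *Fmod* was highest in TSPCs-7d, like *Col14a1*, whereas *Lum*, *Dcn* and *Prelp* were highest in TSPCs-56d, like *Col15a1*.

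Of 11 genes listed as collagen receptors, 0 were higher in any comparison. The list also holds *Endou*, an endoribonuclease gene and not a collagen receptor, which was at or under the median on all arrays. The adhesion receptor gene *Adgrg1*, a receptor for type III collagen (491, 182 and 178), was lower in both older cultures, by 2.70-fold in TSPCs-7d and by 2.76-fold in TSPCs-56d. Of 17 genes of collagen degradation, 2 were higher in TSPCs-7d vs. TSPCs-1d, among them the protease gene *Mmp3* (332, 1930.1 and 1926), with 0 lower (median -0.05). Against TSPCs-56d, 1 was higher, the collagenase gene *Mmp13* (193, 240.3 and 109), and 2 were lower, the cathepsin gene *Ctsk* (480.4, 762 and 1803) and the inhibitor gene *Timp3* (656, 483 and 1550.3), with a median of -0.20. In TSPCs-56d vs. TSPCs-1d, 5 were higher and 0 lower (median 0.11), against 2.00% and 1.77% of all genes. The list counts proteases and inhibitors together, and these 5 were led by the proteases *Mmp3* and *Ctsk* and the inhibitor *Timp3*. Of 19 regulators of collagen genes, 0 passed the cutoff in any comparison, with medians of 0.09, 0.00 and 0.18. The tendon factor *Scx*, which drives *Col1a1*, had 2255, 2578 and 2569. The genes *Mkx*, *Sox9* and *Runx2* were not analysed here.

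Markers of tendon and of other cell types were read on the same arrays. Of 8 tendon markers, 7 exceeded the median on some array. In TSPCs-7d vs. TSPCs-1d, 2 were higher, *Thbs4* and *Fmod*, and 0 lower. Against TSPCs-56d, 2 others were higher in TSPCs-7d and 0 lower, *Tnmd* (543, 351 and 158) and *Eya1* (993, 814 and 87.0). Both of these were highest in TSPCs-1d, and no tendon marker of TSPCs-7d passed 2-fold against both other cultures. In TSPCs-56d vs. TSPCs-1d, 1 was higher (*Thbs4*) and 2 were lower, *Tnmd* and *Eya1*. Markers of epithelium (summed signal 452 to 518 over 9 genes), endothelium (882 to 1056 over 9) and immune cells (912 to 1149 over 10) included 8, 6 and 5 genes at or under the median on all arrays, and 0 of each list passed 2-fold between any ages. Of 7 Schwann cell markers, 0 passed it, and their sum was 3890, 4881 and 5537, mostly from *Pmp22* (2963, 3903 and 4002). *Sox10*, *Ngfr* and *Foxd3* were at or under the median on all arrays. Of 10 markers of pericytes and smooth muscle, 1 was higher and 1 lower in TSPCs-56d than in TSPCs-1d, *Myh11* (2186, 1671 and 5067) and *Mcam* (2182, 930.0 and 927), with a sum of 21501, 16389 and 23844. In the same comparison, 1 of 7 skeletal muscle markers was higher, *Acta1* (1772, 855 and 5327), the source of most of the sums (2196, 1313 and 5808). *Myod1*, *Myog* and *Chrna1* were at or under the median on all arrays. Of 7 bone markers, 1 was lower in TSPCs-56d vs. TSPCs-1d, *Dmp1* (230, 75.1 and 69.1), also 3.06-fold lower in TSPCs-7d than in TSPCs-1d. The bone sums (7591, 9943 and 7928) came mostly from *Spp1* (6932, 9493 and 7486). Of 10 adipocyte markers, 1 was lower in TSPCs-56d than in TSPCs-1d, *Fabp4*, from 70.6 to a dim signal (bounded ratio 1.44). In TSPCs-7d, 2 were lower than in TSPCs-1d and 1 lower than in TSPCs-56d, *Lpl* (542.5, 153 and 834) in both. The adipocyte sums were 1448, 979 and 1750.2. Their part in the collagen values was not tested.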

How the data were processed

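RNA of cultured TSPCs was read on 3 arrays, 1 for each age. Per the methods the authors normalized and summarized the scans with MAS5 and RMA, whereas MAS5 is the only algorithm in the submitters' notes. The deposited values are intensity on a linear scale, 1 per probe set, and were used without further scaling. Detection calls were not analysed here, so low signals were bounded by the 25th percentile. The number of arrays limits the precision. The platform's table named a single gene for 20826 probe sets, several for 436 and none for 9780. RefSeq (GRCr8) gave names, neighbours and promoter windows, and all 41 gene IDs matched it under the same symbol.

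Fold changes were ratios between arrays, read against a cutoff of 2. Named genes were all collagen chains and, per further list, up to 3 per direction and comparison with the largest ratio past the cutoff whose higher signal exceeded the median. The members and lists were chosen with earlier results of these data known. Some genes the text sets beside these were chosen after their values were seen: *Pcolce*, *Scx*, and the markers named. Alternatives were 3 scalings (division by the median, quantile, loess of span 0.2), 2 floors, a pseudocount of 32, the geometric mean over probe sets, no shared probe sets, cutoffs of 1.5 and 3 and, added after seeing the data, only brighter genes. The calculation was tested on simulated data: the 200 probe sets given a 3-fold change were all found again in each comparison of TSPCs-7d, with 0 false calls among 31042. These changes were planted only in probe sets brighter than the median, with noise smaller than the differences seen between probe sets of a gene. The result thus checks the code and not the rate of false calls in the data. Python 3.11.15, numpy 2.4.6, pandas 2.3.3, statsmodels 0.14.6 and matplotlib 3.10.9 were used.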

Additional observations from a re-analysis of the deposited data

How the results depend on the processing

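At a cutoff of 1.5, 11 collagen genes passed in TSPCs-7d vs. TSPCs-1d, 12 in TSPCs-7d vs. TSPCs-56d and 8 in TSPCs-56d vs. TSPCs-1d (8.15%, 10.4% and 11.4% of all genes), in place of 4, 4 and 5. At a cutoff of 3, 2, 2 and 3 passed (0.689%, 1.097% and 1.55% of all genes). In TSPCs-56d vs. TSPCs-1d, 3 passed with signals under the median raised to it (2.23% of all genes), and 3 of 23 when only genes above the median on some array were counted (4.22%), a choice made after seeing the data. Those lost were *Col19a1* and *Col25a1*. The floor at the median also took *Col19a1* out of TSPCs-7d vs. TSPCs-1d and *Col25a1* out of TSPCs-7d vs. TSPCs-56d, which left 3 in each. With the geometric mean over probe sets *Col6a3* fell short (1.91-fold), and with division by the median *Col8a1* did (1.93-fold), which made the split of that comparison 1 higher and 3 lower for collagens and 233 and 303 for all genes, from 284 and 251. The floor at the 25th percentile took out *Col25a1* (1.68-fold and 1.79-fold). The other calls of single genes at a 2-fold cutoff held under each scaling, floor, pseudocount and choice of probe set tried. No gene past 2-fold changed direction. The medians over the 41 genes moved by less than the spread between probe sets of a gene, although that of TSPCs-7d vs. TSPCs-56d, -0.05, was 0.03 with division by the median. Of 984 values of single genes under these alternatives, 61 moved by more than that spread, 45 of them under a floor. No paired analysis was possible because each age has 1 array. Signal over background was not measured, so dim genes allow only bounds that depend on the floor chosen.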
